A study of Mus musculus with 19 samples.

Results

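The genes described are the core machinery of the cell division cycle and its nearest relatives: A-, B-, D- and E-type cyclins, cyclin-dependent kinases (CDKs), the MCM genes of DNA replication and the E2F transcription factors. They were taken by symbol, as every row of the deposited transcript tables named Ccna, Ccnb, Ccnd, Ccne, Cdk, Mcm or E2f with a number, with the transcript of the highest mean count kept for each symbol. This gave 45 genes of 23337 symbols, from 55 of 30455 transcripts: 3 D, 2 E and 5 A and B cyclins, 4 CDKs of the cell cycle, 14 other CDKs, 6 subunits of the MCM helicase, 3 other MCM genes and 8 E2Fs. All 45 passed the filter on low counts.

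The study asked whether cystic embryoid bodies (EBs), hollow balls grown from mouse embryonic stem (ES) cells, resemble the visceral yolk sac endoderm (ysE) of the embryo. RNA-seq covered 11 libraries. ysE of FVB mice was separated from the yolk sac at E9.25 (2 libraries, A and B) and at E12.5 (1 library), visceral yolk sac (VYS) mesoderm, the layer with blood vessels and blood cells, was taken from the same E9.25 stage (2 libraries), and fetal liver was taken from FVB embryos at E12.5 (2 libraries), each library from whole pooled litters. Cystic EBs of C57Bl/6x129 background were differentiated for 10 days (d10) or 15 days (d15) from 2 ES cell clones, A9 (replicate A, an XY line) and JN (replicate B, an XX line), which gave 4 libraries that are not independent of clone. Whole-genome bisulfite sequencing (WGBS) covered E12.5 ysE, E12.5 liver and d15 cystic EBs in both directions of a cross of Cast with FVB, CxF and FxC, 1 library each, with 1 ES clone per direction. H3K4me3, a histone mark of active gene starts, was measured in 1 library of whole E12.5 VYS of FVB.

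D cyclins bind CDK4 and CDK6 in G1 phase, E cyclins bind CDK2 at the entry into S phase, A cyclins act in S phase and G2, and B cyclins drive mitosis with CDK1. D- and E-type kinases phosphorylate the retinoblastoma family, which releases the E2F factors, and E2Fs turn on genes of DNA synthesis such as the MCM genes, whose products MCM2 to MCM7 form the ring-shaped helicase loaded on replication origins. Much of this set is transcribed in waves within a cycle, so its RNA is often read as a sign of dividing cells. Mid-gestation fetal liver is the main site of definitive red cell formation, and ysE is an absorptive epithelium. In bulk RNA, fewer cells of a type and less RNA per cell cannot be told apart.

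Promoter sequences from RefSeq (GRCm38.p6), from 250 bases before to 50 after the start, were held for 35 of the 45 genes. Cell cycle genes are known for E2F sites, and mitotic genes for the cell cycle homology region (CHR) with CCAAT boxes upstream. Of the 35 windows, 9 (25.7%) held TTTCCCGC or TTTGGCGC on either strand, against 1.63% of 27025 windows of all genes and 2.63% of those of genes tested for expression. These are forms of an E2F site. Other forms were not searched for, so a window without a match can still hold a site. Each form was present in 5 windows (14.3%), with 1.11% for TTTCCCGC and 0.537% for TTTGGCGC over all genes. CCAAT was in 21 windows (60%, 38.0% of all), the GC box GGGCGG in 28 (80.0%, 35.9% of all and 56.9% of tested genes) and TATAAA in 1 (2.86%, 14.2% of all). TTTGAA, the CHR letters, was in 6 (17.1%) against 18.2% of all and 12.7% of tested genes. Median GC content was 59.3% in the 35 windows and 52.7% over all genes, and these windows are a description, since a match is not a bound site.

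The E2F matches lay at Mcm3, Mcm5, Mcm6, Mcm7, Mcm8, E2f2, E2f3, E2f7 and Cdk2. Windows of 4 of these 9 genes, 3 of the helicase and E2f2, and of Cdk1 for the CHR, are shown 5′ to 3′ on the strand of the gene, with E2F matches and TTTGAA, or their reverse complements, in capitals. Mcm5 (chr8:75109259-75109558, plus strand) has 1 match, Mcm3 (chr1:20820263-20820562, minus strand) has 2 of different form on opposite strands just after its start, and Mcm6 (chr1:128359656-128359955, minus strand) has 2 of the same form upstream. The E2f2 window (chr4:136172024-136172323, plus strand) has its match after the start, and that of Cdk1 (chr10:69352863-69353162, minus strand) has TTTGAA at 71 and 15 bases before the start.
Mcm5: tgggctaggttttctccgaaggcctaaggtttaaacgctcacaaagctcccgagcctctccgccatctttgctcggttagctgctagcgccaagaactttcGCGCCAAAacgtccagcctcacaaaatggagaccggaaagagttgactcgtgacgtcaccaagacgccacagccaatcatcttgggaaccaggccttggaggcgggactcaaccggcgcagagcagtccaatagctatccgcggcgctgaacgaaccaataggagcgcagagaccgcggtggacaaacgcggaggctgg
Mcm3: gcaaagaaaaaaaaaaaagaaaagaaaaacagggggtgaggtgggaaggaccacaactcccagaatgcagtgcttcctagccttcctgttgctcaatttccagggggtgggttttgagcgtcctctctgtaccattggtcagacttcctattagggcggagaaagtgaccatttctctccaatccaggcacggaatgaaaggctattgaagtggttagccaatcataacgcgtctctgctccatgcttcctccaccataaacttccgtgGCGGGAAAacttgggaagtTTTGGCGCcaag
Mcm6: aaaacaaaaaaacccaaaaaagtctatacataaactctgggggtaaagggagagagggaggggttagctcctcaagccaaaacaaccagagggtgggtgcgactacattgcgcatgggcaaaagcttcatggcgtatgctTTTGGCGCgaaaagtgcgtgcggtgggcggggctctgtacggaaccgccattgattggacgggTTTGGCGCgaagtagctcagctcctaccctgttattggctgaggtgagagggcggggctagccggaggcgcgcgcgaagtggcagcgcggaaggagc
E2f2: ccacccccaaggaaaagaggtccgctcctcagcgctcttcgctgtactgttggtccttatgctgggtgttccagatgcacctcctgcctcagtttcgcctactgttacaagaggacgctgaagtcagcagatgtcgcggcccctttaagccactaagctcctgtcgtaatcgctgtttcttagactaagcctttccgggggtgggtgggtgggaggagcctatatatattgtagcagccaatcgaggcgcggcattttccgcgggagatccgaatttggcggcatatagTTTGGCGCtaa
Cdk1: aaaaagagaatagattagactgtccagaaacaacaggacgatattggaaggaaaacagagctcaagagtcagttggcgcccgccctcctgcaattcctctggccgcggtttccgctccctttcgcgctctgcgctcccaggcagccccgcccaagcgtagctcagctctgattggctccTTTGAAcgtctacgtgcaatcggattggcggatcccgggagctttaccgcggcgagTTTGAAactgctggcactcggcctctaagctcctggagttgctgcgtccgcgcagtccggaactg

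Total counts per library were 40453779 to 169981821, and the 45 genes took from 0.193% (E12.5 ysE) to 0.572% (liver replicate B) of them. Library protocols differed: E9.25 ysE, VYS mesoderm and JN cystic EBs were made by a dUTP method, liver and A9 cystic EBs by ScriptSeq, and E12.5 ysE by a non-stranded method. Liver and ysE therefore never share a protocol, and tissue and protocol cannot be told apart between them. Stage and protocol cannot be told apart between the ysE libraries, nor clone and protocol between the cystic EBs. Markers of hepatocytes and visceral endoderm (8 genes, among them Afp and Ttr) summed to 10406 to 43284 RPKM in ysE, to 1995 and 3725 RPKM in liver, to 1138 and 2031 RPKM in mesoderm and to 158 to 1293 RPKM in cystic EBs. Liver had 7 of the 8 below E12.5 ysE and 6 below E9.25 ysE, while Alb was above E9.25 ysE (358 and 767 RPKM against 0.221 and 0.194), and mesoderm had 6 below E9.25 ysE. Of 6 myeloid markers tested, 3 were higher in liver than in ysE of either stage and 2 in mesoderm than in E9.25 ysE. Their sums were nevertheless lowest of these tissues for mesoderm, at 11.2 and 14.3 RPKM. E9.25 ysE summed to 23.8 and 25.3, E12.5 ysE to 31.8 and liver to 39.4 and 64.2. Fcgr3 fell from 20.2 and 21.8 RPKM (E9.25 ysE) to 3.8 and 5.7 (mesoderm) or 5.6 and 6.5 (liver). Erythroid markers (8 genes) summed to 567 and 1088 RPKM in liver and 360 RPKM in both mesoderm libraries, against 2.52 to 12.4 RPKM in ysE and 2.07 to 5.42 RPKM in cystic EBs. All 8 were higher in liver than in ysE of either stage and in mesoderm than in ysE, so markers of several other cell types moved with each liver and mesoderm result below. Of 8 endothelial and mesenchymal markers, 7 were higher in mesoderm than in E9.25 ysE (sums of 722 and 727 RPKM against 26.8 and 44.6), and liver had 3 higher than E9.25 ysE and 6 higher than E12.5 ysE. In cystic EBs 5 of the 8 erythroid markers were lower than in E9.25 ysE, while 5 of 5 neural markers tested and 5 of 6 cardiac markers were higher, and pluripotency markers (7 genes) summed to 114 to 390 RPKM against 3.12 to 6.34 RPKM in ysE. The part of these cells in the results was not tested.

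**Figure D1:**
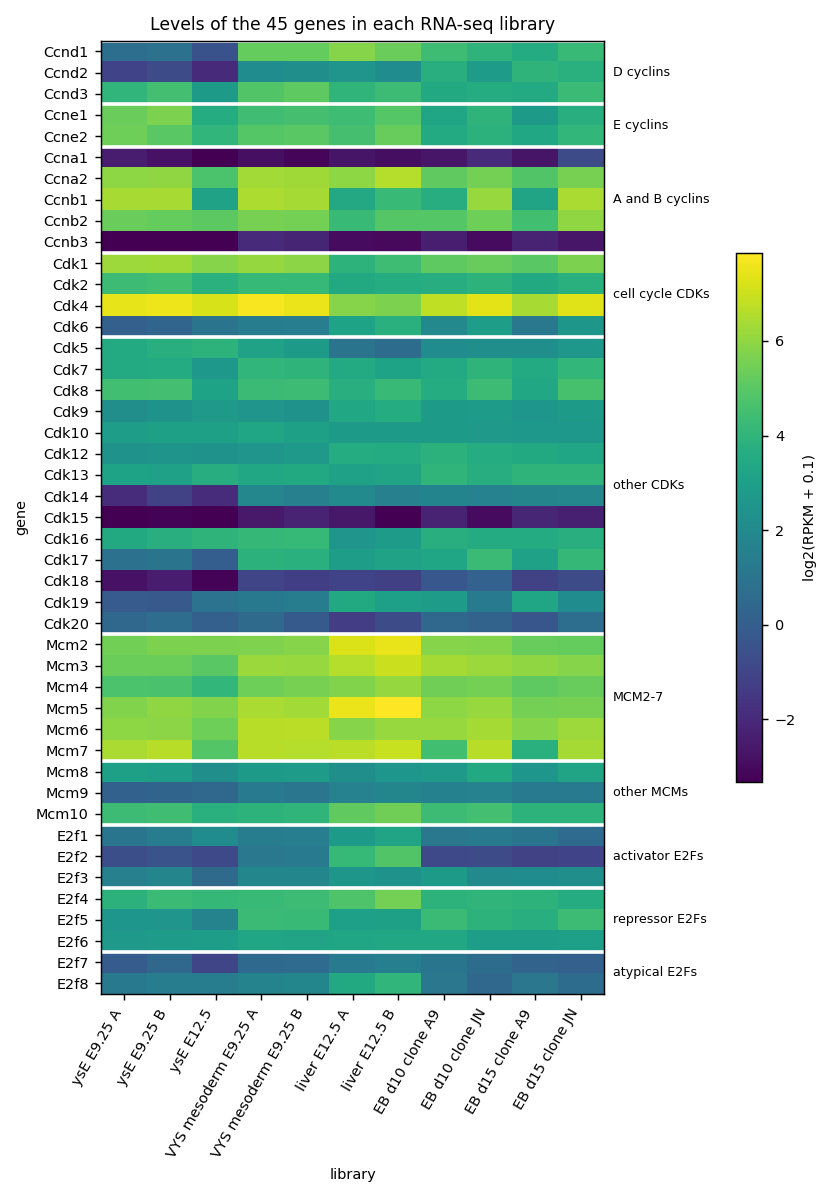
Levels of the 45 genes (rows, grouped by role) in the 11 RNA-seq libraries (columns), as log2 of RPKM + 0.1. The Ccnd1, Ccnd2, Cdk14 and Cdk17 rows are dark in the 3 ysE libraries, the E2f2, E2f8, Mcm2 and Mcm5 rows are brightest in the 2 liver libraries, and Ccnb1 and Mcm7 differ between the A9 and JN cystic EBs.

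Levels are given as the authors' RPKM (reads per kilobase of transcript, scaled to library size), and differences as log2 fold changes fitted to the counts, with an adjusted p from edgeR's quasi-likelihood test over 24858 transcripts. The levels lack the library factors of the fit (TMM), which were 0.766 to 0.816 in ysE and 1.12 to 1.21 in cystic EBs. Rankings of levels can therefore differ from fitted differences. A difference is called at an adjusted p under 0.05, or under 0.01 for cystic EBs against E12.5 ysE. Against E9.25 ysE, 22 of 45 genes were higher and 8 lower in liver, where 28.3% of all transcripts were called higher and 26.7% lower. Against E12.5 ysE, 23 were higher and 4 lower (23.7% and 22.6% of all transcripts). E12.5 ysE is 1 library, so in each comparison with it the spread comes from the other groups and that library is assumed to vary like them. The median log2 fold change of the 45 genes was 0.74 and 1.30 in these comparisons, and 0.07 and 0.26 over all transcripts. Leaving out liver replicate A reduced the genes lower than in E9.25 ysE to 5, and the share of all transcripts to 19.4%.

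Cystic EBs were below liver for 19 genes and above it for 7 (20.9% and 24.6% of all transcripts), with a median of -0.42 against 0.20 over all. The 7 became 1 without liver replicate A (15.7% of all), 3 without liver replicate B (13.5%) and 4 within the ScriptSeq libraries (21.8%), while the lower genes numbered 14 to 19 over the libraries left out. Against E9.25 ysE, 11 genes were higher and 14 lower in cystic EBs (27.1% and 23.2% of all). These were 24.4% and 31.1% of the 45 genes, with a median of -0.39 against 0.17 over all. The lower genes became 8 without ysE E9.25 replicate A and 6 without replicate B, where the share of all fell to 15.5% and 14.1%. Against E12.5 ysE, 9 genes were called, 7 higher and 2 lower (10.8% of all transcripts were higher and 23.3% called either way), and the 2 became 1 without d10 replicate A, liver replicate B, or any 1 of the mesoderm and E9.25 ysE libraries (10.2% to 11.2% of all lower).

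In the only comparison within a stage and protocol, VYS mesoderm against E9.25 ysE, 8 genes were higher and 2 lower (16.9% and 13.7% of all), which became 15 and 8 with only these groups in the fit, where the share of all transcripts rose too (30.3% and 30%). The 2 lower genes, Ccne1 and Cdk5, became 0 without any 1 of the 4 libraries compared (5.59% to 8.04% of all), and 4 genes were lower without d10 or d15 replicate B (15.5%). Between the stages of ysE, no gene was higher and 3 were lower at E12.5 (3.9% and 4.57% of all), and the 3 became 0 without any 1 of the E9.25 libraries (0.797% to 2.53% of all) and 6 without d10 replicate B (6.46%). With only the ysE libraries in the fit, 5 were higher and 19 lower (25.1% and 25.2% of all). Between d15 and d10 cystic EBs, edgeR's quasi-likelihood test called 0 of the 45 genes (0% of all transcripts in each direction). An unadjusted p under 0.05 was found for 1358 of all transcripts (5.46%), and for 1399 (5.79%) with the replicate letter as a block and E12.5 ysE left out of the fit. DESeq2 called 127 higher and 18 lower, none of them among the 45. These comparisons share libraries, so calls of a gene in several of them are not separate evidence.

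**Figure D2:**
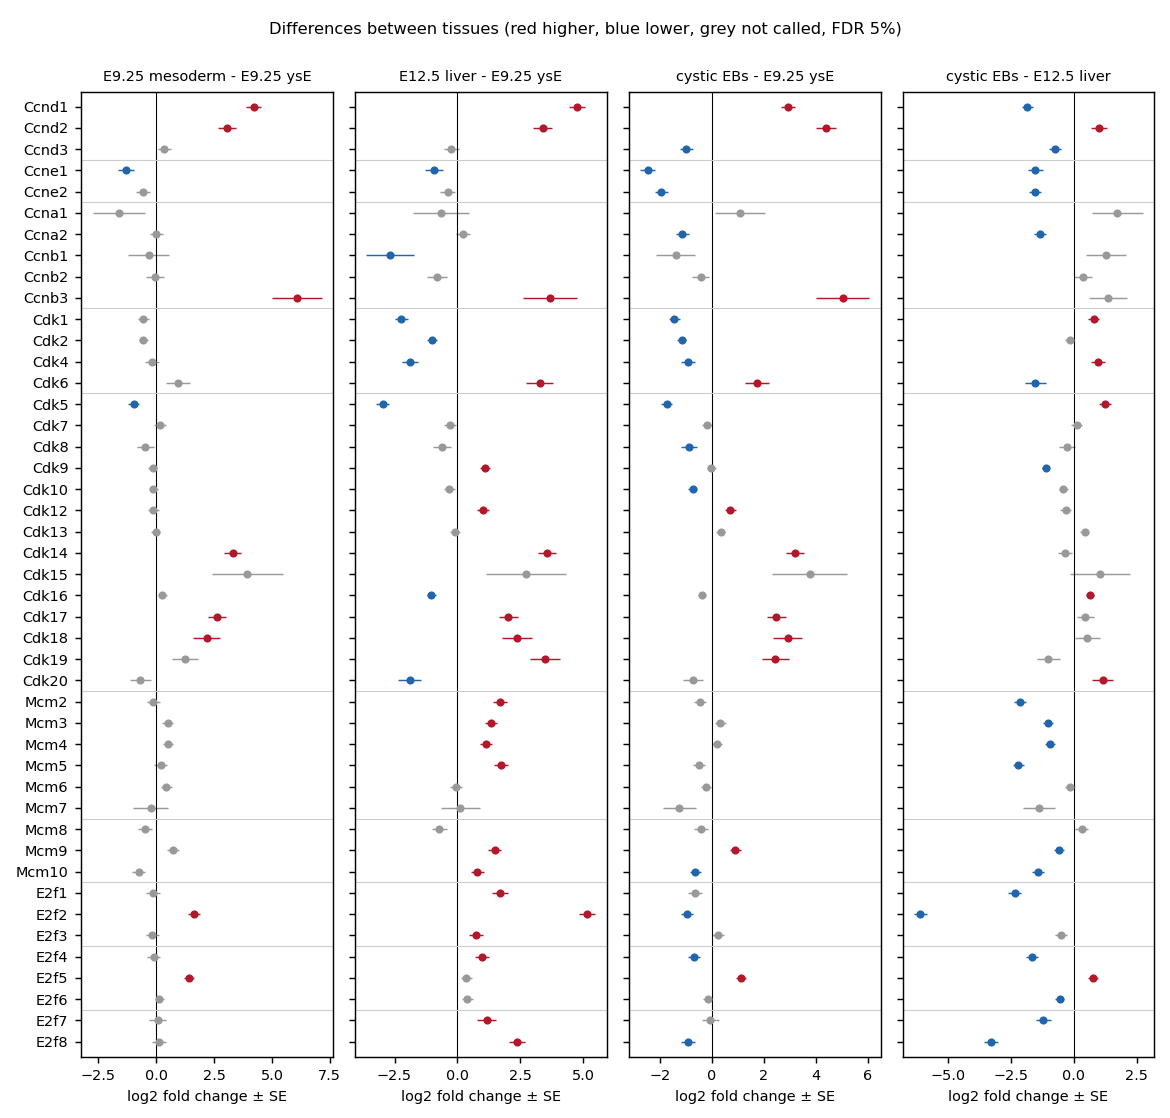
Log2 fold change (x axis, bars SE) of each gene (y axis, grouped by role) in 4 comparisons, red higher, blue lower and grey not called at an adjusted p of 0.05. The D cyclins Ccnd1 and Ccnd2 lie far right in the 3 comparisons with E9.25 ysE, and E2f2 lies at 5.17 for liver against ysE and -6.12 for cystic EBs against liver. Values of Ccnb3 and Cdk15, which each had 0 and 2 counts in the E9.25 ysE libraries, depend on the prior count of the fit.

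Of the D cyclins, which start the cycle in response to growth signals, Ccnd1 and Ccnd2 were far lower in ysE than in all other tissues. Ccnd1 (chr7:144929931-144939831, GRCm38.p6, the build of all coordinates here) was at 1.53 and 1.69 RPKM in E9.25 ysE and 0.611 in E12.5 ysE. It reached 37.2 and 36.9 in mesoderm, 56.1 and 39.1 in liver, with 20.7, 15.5, 11.8 and 18.6 in the cystic EBs (d10 A9, d10 JN, d15 A9 and d15 JN, an order kept throughout). Every library outside ysE lay above every ysE library. Log2 fold changes over E9.25 ysE were 4.21 ± 0.31 (SE) in mesoderm (adjusted p = 1.27e-04), 4.77 ± 0.32 in liver (1.48e-05) and 2.92 ± 0.28 in cystic EBs (6.51e-05). It was also 6.25 ± 0.48 higher in liver than in E12.5 ysE (4.26e-05), and lower in cystic EBs than in liver by -1.86 ± 0.23 (2.63e-04). Within 1 protocol the differences were as large, 3.05 for JN cystic EBs against E9.25 ysE (2.3e-05) and -1.87 for A9 cystic EBs against liver (8.4e-03).

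Ccnd2 (chr6:127125162-127152188) showed the same low level in ysE, with 0.374 and 0.486 RPKM at E9.25 and 0.157 at E12.5. Mesoderm held 4.26 and 4.72, liver 5.63 and 4.17, and cystic EBs 13.1, 7.13, 15.4 and 13.6 RPKM, so cystic EBs were highest and no group outside ysE overlapped with it. Cystic EBs exceeded E9.25 ysE by 4.39 ± 0.38 (adjusted p = 4.67e-05), E12.5 ysE by 5.93 ± 0.59 (1.04e-04) and liver by 0.99 ± 0.31 (2.79e-02) on the log2 scale. The last call was lost without d15 replicate B or either liver library. Ccnd3 went another way: it was at 16.2 and 23.0 RPKM in E9.25 ysE, 6.74 at E12.5, 28.6 and 33.7 in mesoderm, 15.7 and 20.4 in liver, while the cystic EBs held 11.04, 12.1, 11.5 and 19.3. It made up most of the D cyclin RNA per length in ysE of both stages, whereas in liver Ccnd1 did. Against E9.25 ysE it was -0.997 ± 0.25 in cystic EBs (8.67e-03), a call lost without ysE replicate B, and -1.62 ± 0.39 in E12.5 ysE (3.57e-02), a call lost without any 1 of the liver, mesoderm or E9.25 ysE libraries.

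The E cyclins, which open S phase with CDK2, had their highest group mean in E9.25 ysE and their lowest in cystic EBs. Ccne1 (chr7:38097984-38107490) was at 40.01 and 49.98 RPKM in E9.25 ysE, 12.01 at E12.5, 21.5 and 23.7 in mesoderm, 21.0 and 30.1 in liver, with 9.48, 15.1, 6.72 and 13.1 in the cystic EBs. E9.25 ysE stood above all other libraries. Its log2 difference from E9.25 ysE was -2.47 ± 0.29 in cystic EBs (adjusted p = 1.60e-04), -1.31 ± 0.35 in mesoderm (1.91e-02), -0.94 ± 0.35 in liver (4.38e-02) and -1.99 ± 0.47 in E12.5 ysE (3.25e-02). Among these, the cystic EB value held under every alternative and was -2.02 between dUTP libraries (1.1e-04). The other 3 calls were lost without any 1 of the mesoderm or E9.25 ysE libraries, and that of liver also without either liver library, under DESeq2 and with DESeq2 size factors in edgeR.

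Ccne2 held 41.6 and 31.6 RPKM in E9.25 ysE, 16.5 at E12.5, 29.7 and 31.7 in mesoderm, 23.2 and 37.7 in liver, while the cystic EBs held 11.3, 14.3, 9.94 and 16.7. Cystic EBs were separate from E9.25 ysE, mesoderm and liver, which overlapped with each other. The log2 difference of cystic EBs was -1.95 ± 0.25 from E9.25 ysE (adjusted p = 2.46e-04) and -1.55 ± 0.25 from liver (1.02e-03). Cystic EBs were thus above E9.25 ysE in Ccnd1 and Ccnd2 and below it in Ccne1 and Ccne2.

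**Figure D3:**
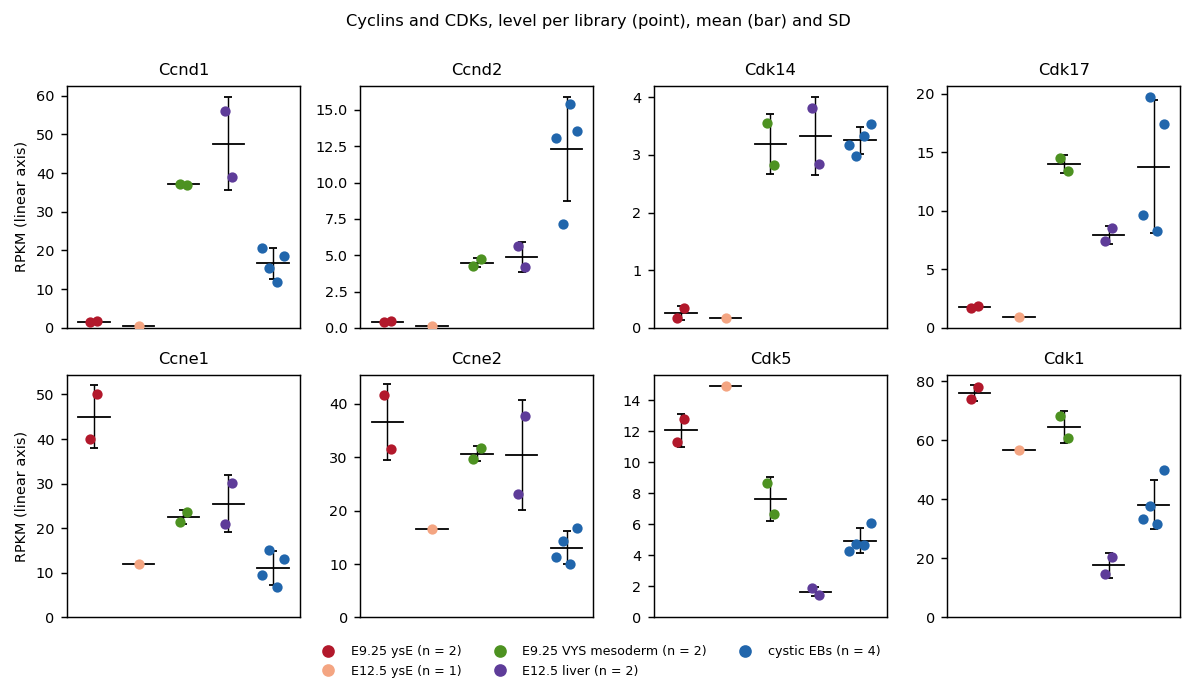
RPKM (linear axes from 0) of 8 cyclin and CDK genes, 1 point per library, with the group mean (bar) and SD. Ccnd1, Ccnd2, Cdk14 and Cdk17 are near the axis in ysE, Ccne1 peaks at 40.01 and 49.98 in E9.25 ysE, and Cdk5 and Cdk1 are lowest in liver.

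Of the A and B cyclins, Ccna2, the cyclin of S phase and G2 in dividing somatic cells, was at 62.2 and 63.3 RPKM in E9.25 ysE, 25.9 at E12.5, 79.2 and 76.6 in mesoderm, 61.9 and 97.4 in liver, with 34.9, 45.4, 28.6 and 47.5 in the cystic EBs. In RPKM, E12.5 ysE was lowest, and cystic EBs lay below E9.25 ysE, mesoderm and liver. Cystic EBs differed by -1.14 ± 0.24 from E9.25 ysE (adjusted p = 3.65e-03) and by -1.36 ± 0.24 from liver (1.67e-03), and liver by 1.58 ± 0.38 from E12.5 ysE (7.34e-03). Ccnb2, a partner of CDK1, was between 18.7 RPKM (liver replicate A) and 63.6 RPKM (d15 JN) and was called in no comparison. The germline cyclins Ccna1 and Ccnb3 were under 0.5 RPKM in every library. Ccnb3 had 0 and 2 counts in E9.25 ysE and 0 at E12.5, but 78 and 75 in mesoderm, and was called higher in mesoderm (2.69e-03), in cystic EBs (3.10e-03) and in liver (1.66e-02), with no fold given because of the counts near 0. The liver call was lost without liver replicate A or ysE E9.25 replicate A.

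Ccnb1, the main B cyclin of mitosis, split the libraries by how they were made. It was at 85.1 and 85.0 RPKM in E9.25 ysE, 88.2 and 81.3 in the mesoderm and 70.7 and 86.7 in JN cystic EBs, all dUTP, and at 12.6 and 9.26 in A9 cystic EBs, 10.74 and 18.3 in liver (ScriptSeq) and 8.61 in E12.5 ysE (non-stranded). No library of the first kind overlapped with the second. Its only call, -2.67 ± 0.94 for liver against E9.25 ysE (adjusted p = 3.57e-02), runs along this split and was lost without any 1 of the 4 libraries. Counts per exon part were deposited for 6 libraries, of which that of ysE E9.25 B holds only zeros, and the other 5 resolve the gene (chr13:100778739-100786486). Part 16 held 5 and 2 reads in the A9 libraries and 1527, 1865 and 1819 in d10 JN, d15 JN and ysE E9.25 A. Part 15 beside it held 960 and 730 in A9 and 2221, 2703 and 2667 in the others. In all, 10 of the 22 parts with at least 50 reads in both JN libraries had, in both A9 libraries, under 5% of the share of reads seen in JN, so A9 reads were nearly absent from some parts and present in others.

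Mcm7 behaved in part alike. A9 cystic EBs held 22.3 and 13.5 RPKM and JN cystic EBs 99.9 and 81.7, while ysE E9.25 held 87.8 and 100.3, mesoderm 101 and 98.0, liver 103 and 119.6, and E12.5 ysE 29.5. Liver, made by the same protocol as A9, was not low. In 6 of 36 parts of Mcm7 the A9 share was under 5% of that in JN: part 21 held 0 and 0 reads in A9 and 862, 656 and 688 in the other 3 libraries, but part 34 held 368 and 182 in A9 and 204 and 203 in JN. The annotation bin of Mcm7 is shared with 2 other genes. The same criterion marked 5 of 24 parts of Ccnd3, 5 of 25 of Cdk8, 1 part each of Ccne2, Cdk17 and Mcm10, and none in the other 38 genes. Some of these 38, such as Ccna1 and Ccnb3, had no part with at least 50 reads in both JN libraries and could not be marked. The criterion was applied to the 45 genes only, so the share of all genes that it would mark is not known. Outside the 45 genes, Cks2, a small CDK-binding protein, showed the Ccnb1 split, with 3.78 and 2.77 RPKM in A9, 3.90 and 5.15 in liver and 8.35 in E12.5 ysE against 40.4 to 60.3 RPKM in the dUTP libraries. Without Ccnb1 and Mcm7, the count of genes lower in liver than in E9.25 ysE became 7 and no other count changed. The cause of these gaps was not tested.

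**Figure D4:**
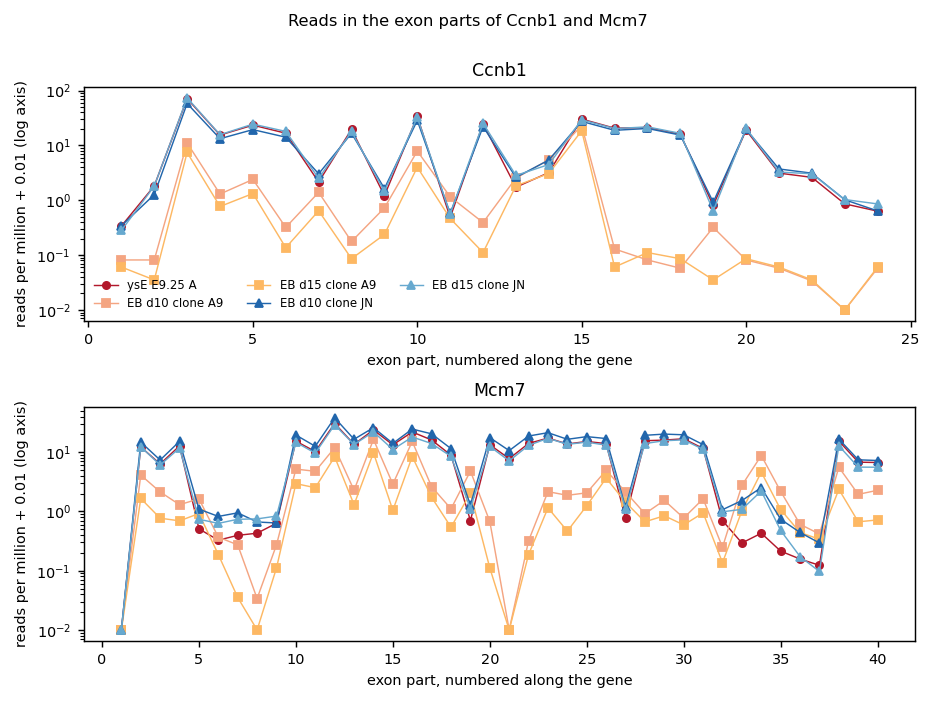
Reads scaled to the library's total, plus 0.01 (log axis) in each exon part of Ccnb1 (top) and Mcm7 (bottom), parts numbered along the gene, for 1 E9.25 ysE and 4 cystic EB libraries. The A9 libraries (squares) fall to near 0 in some parts, such as part 16 of Ccnb1 and part 21 of Mcm7, and meet the JN and ysE lines in others.

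Among the CDKs of the cycle, Cdk4, the kinase of the D cyclins, had the highest mean RPKM of the 45 genes over the 11 libraries. It was at 172.5 and 191 RPKM in E9.25 ysE, 147 at E12.5, 214 and 186 in mesoderm, 56.1 and 50.1 in liver, while the cystic EBs held 110.2, 171, 83.0 and 158.7. Cdk1, the mitotic kinase whose promoter is shown above, was at 74.1 and 78.0 in E9.25 ysE, 56.6 at E12.5, 68.4 and 60.8 in mesoderm, 14.7 and 20.5 in liver, while the cystic EBs held 33.4, 37.7, 31.8 and 49.99. Liver was below every other library for both genes. Relative to E9.25 ysE, liver differed by -1.89 ± 0.33 for Cdk4 (adjusted p = 1.10e-03) and -2.23 ± 0.26 for Cdk1 (1.41e-04), and relative to E12.5 ysE by -1.50 ± 0.37 (9.20e-03) and -1.72 ± 0.29 (1.38e-03). Within ScriptSeq, A9 cystic EBs against liver gave 0.56 for Cdk4 (6.6e-02) and 0.59 for Cdk1 (6.8e-02), where the difference over all cystic EBs was 0.96 ± 0.29 (2.20e-02) and 0.78 ± 0.22 (1.85e-02). Neither gene was called within ScriptSeq, where both values were smaller, and both calls were also lost without liver replicate A, that of Cdk4 without replicate B too.

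Cdk6, the other partner of the D cyclins, was highest in liver, from 0.987 and 1.14 RPKM in E9.25 ysE and 2.46 and 2.62 in mesoderm to 8.90 and 13.4 in liver (3.27 ± 0.54 on the log2 scale, adjusted p = 8.47e-04), and was 1.06 and 1.36 higher on the log2 scale in JN than in A9 cystic EBs at d10 and d15. Cdk2, the E cyclin kinase, was below its E9.25 ysE level both in liver (-0.996 ± 0.20, 2.50e-03) and in the cystic EBs (-1.16 ± 0.17, 4.82e-04).

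Cdk5, an atypical CDK best known from neurons and activated by non-cyclin partners, was highest in ysE. It held 11.3 and 12.8 RPKM in E9.25 ysE, 14.9 at E12.5, 8.63 and 6.64 in mesoderm, 4.29, 4.72, 4.64 and 6.11 in cystic EBs and 1.88 and 1.44 in liver. The groups followed each other without overlap, from E12.5 ysE down to liver. Liver differed by -2.97 ± 0.27 from E9.25 ysE (adjusted p = 4.39e-05) and -3.20 ± 0.30 from E12.5 ysE (7.77e-05). Cystic EBs differed by -1.74 ± 0.21 (1.76e-04) and -1.97 ± 0.25 (3.31e-04) from these, and exceeded liver by 1.23 ± 0.23 (2.30e-03). Mesoderm differed by -0.98 ± 0.25 (1.52e-02) from E9.25 ysE, the call lost without any 1 of those 4 libraries.

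Cdk14, a membrane-tethered kinase of the cyclin Y group that acts in Wnt signalling, was lowest in ysE, and so were its relatives Cdk17 and Cdk18 of the PCTAIRE family. Cdk14 was at 0.169 and 0.348 RPKM in E9.25 ysE and 0.165 at E12.5, and at 3.56 and 2.82 in mesoderm, 3.81 and 2.85 in liver, with 3.17, 2.98, 3.33 and 3.54 in the cystic EBs. The 3 other tissues overlapped with each other and not with ysE. Against E9.25 ysE the log2 differences were 3.30 ± 0.36 in mesoderm (adjusted p = 3.39e-04), 3.57 ± 0.37 in liver (7.62e-05) and 3.20 ± 0.34 in cystic EBs (1.10e-04). Cdk17 followed, from 1.74 and 1.87 RPKM in E9.25 ysE to 7.41 to 19.7 RPKM outside ysE. Cdk18 was low everywhere, at 0.044 and 0.081 RPKM in E9.25 ysE, then 0.401 and 0.316 in mesoderm, 0.376 and 0.331 in liver, 0.711, 1.03, 0.35 and 0.487 in cystic EBs, and 1 count in E12.5 ysE. It was 2.91 ± 0.57 higher in cystic EBs than in E9.25 ysE (2.50e-03), and 2.19 ± 0.59 in mesoderm (1.95e-02), a call lost without any 1 of those 4 libraries. Cdk16, of the same family, was at 10.8 and 13.0 RPKM in E9.25 ysE, 15.4 at E12.5, 17.1 and 18.2 in mesoderm, 5.64 and 7.02 in liver, while the cystic EBs held 13.3, 11.8, 11.6 and 12.8. Liver was below and mesoderm above all other libraries in RPKM. The liver difference from E9.25 ysE was -1.03 ± 0.20 (1.86e-03), and mesoderm was not called.

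Across the 45 genes, 6 were called higher than in E9.25 ysE in mesoderm, liver and cystic EBs alike (Ccnd1, Ccnd2, Ccnb3, Cdk14, Cdk17 and Cdk18), and 2 lower in all 3 (Ccne1 and Cdk5), where 9.59% of all transcripts were higher and 8.4% lower in all 3. The 3 comparisons share the E9.25 ysE libraries. Of the kinases of transcription, Cdk8, of the Mediator complex, was at 21.96 and 22.7 RPKM in E9.25 ysE, 8.90 at E12.5, 19.8 and 20.3 in mesoderm, 13.0 and 18.9 in liver, with 12.02, 20.2, 9.90 and 23.9 in the cystic EBs, where its call against E9.25 ysE (-0.90 ± 0.31, adjusted p = 3.71e-02) was lost without either A9 library or any 1 of the mesoderm and E9.25 ysE libraries. Its paralogue Cdk19 ran from 0.812 and 0.768 in E9.25 ysE to 11.1 and 7.83 RPKM in liver, with 1.80 in E12.5 ysE and 2.19 and 2.49 in mesoderm. Cdk19 also differed by protocol and clone within the cystic EBs. It held 6.87 and 9.69 RPKM in A9 (ScriptSeq, as in liver) and 2.385 and 4.27 in JN (dUTP, as in E9.25 ysE). Cdk9, which releases paused RNA polymerase II, was 1.09 ± 0.20 higher in liver than in E9.25 ysE (1.46e-03). Cdk12, a kinase of the polymerase tail, was 1.03 ± 0.24 higher (5.73e-03), while its relative Cdk13 and the CDK-activating kinase Cdk7 were called in no comparison. Cdk20 was at 1.26 and 1.52 RPKM in E9.25 ysE, 0.965 at E12.5, 1.35 and 0.789 in mesoderm, 0.307 and 0.502 in liver, while the cystic EBs held 1.26, 1.08, 0.689 and 1.52. Its call in cystic EBs over liver (1.15 ± 0.42, 4.62e-02) was lost in 14 of the alternatives.

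Of the 6 MCM helicase genes, 4 were called higher in liver than in E9.25 and in E12.5 ysE (28.3% and 23.7% of all transcripts). Mcm6 and Mcm7 were not called. Mcm7 was nevertheless at 103 and 119.6 RPKM in liver against 29.5 in E12.5 ysE, and it differed between A9 and JN cystic EBs as given above. Mcm5 was at 52.9 and 64.0 RPKM in E9.25 ysE, 52.7 at E12.5, 86.8 and 79.7 in mesoderm, 187 and 232 in liver, with 62.5, 70.7, 45.9 and 47.7 in the cystic EBs. Mcm2 showed 153 and 177 RPKM in liver against 37.1 to 56.6 RPKM in the 9 other libraries. For both, the liver libraries were far above all others. In Mcm5 mesoderm came next, above every ysE and cystic EB library. Mcm5 was higher in liver by 1.72 ± 0.28 than in E9.25 ysE (adjusted p = 8.36e-04) and by 1.96 ± 0.37 than in E12.5 ysE (2.41e-03), and lower in cystic EBs than in liver by -2.21 ± 0.23 (1.10e-04), or -2.26 within ScriptSeq (2.2e-03). For Mcm2 the same differences were 1.68 ± 0.29 (9.94e-04), 1.69 ± 0.37 (4.97e-03) and -2.15 ± 0.23 (1.33e-04).

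Mcm3 and Mcm4 were higher in liver than in E9.25 ysE by 1.34 ± 0.25 (adjusted p = 1.63e-03) and 1.15 ± 0.23 (2.64e-03), and in both, mesoderm and cystic EBs lay between ysE and liver in RPKM. Mcm3 was at 40.8 and 40.8 RPKM in E9.25 ysE, 72.4 and 71.1 in mesoderm, 57.5 to 82.5 in cystic EBs and 97.7 and 126 in liver. Mcm6, which has 2 E2F matches in its window, went its own way, with 56.3 and 70.0 RPKM in liver, 61.6 and 59.7 in E9.25 ysE, 41.5 at E12.5, 102 and 103 in mesoderm and 57.2 to 82.8 in cystic EBs, and was called in no comparison. No helicase gene was called between cystic EBs and ysE of either stage, nor between mesoderm and ysE. Of all transcripts, cystic EBs had 27.1% called above and 23.2% below E9.25 ysE, and 23.3% either way against E12.5 ysE. For mesoderm the shares were 16.9% above and 13.7% below. In RPKM, which lack the TMM factors, both mesoderm libraries lay above both E9.25 ysE libraries for Mcm2 to Mcm6, and Mcm7 overlapped. The main fit shares its spread with the other groups, and more genes were called with only mesoderm and E9.25 ysE in the fit, as given above. The lack of a call is therefore not evidence of equal levels. Mcm10, which acts when the helicase fires, was at 20.2 and 21.4 RPKM in E9.25 ysE, 13.5 at E12.5, 14.8 and 15.8 in mesoderm, 34.8 and 43.5 in liver, while the cystic EBs held 20.5, 23.0, 14.9 and 14.7. Cystic EBs differed from liver by -1.43 ± 0.22 (9.24e-04). Mcm8, of DNA repair by recombination, was at 8.19 and 7.64 in E9.25 ysE, 4.66 at E12.5, 6.80 and 7.16 in mesoderm, 4.61 and 5.81 in liver, with 6.47, 11.1, 5.81 and 9.05 in the cystic EBs, and was called nowhere. Its partner Mcm9 was 1.49 ± 0.26 higher in liver than in E9.25 ysE (1.05e-03).

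**Figure D5:**
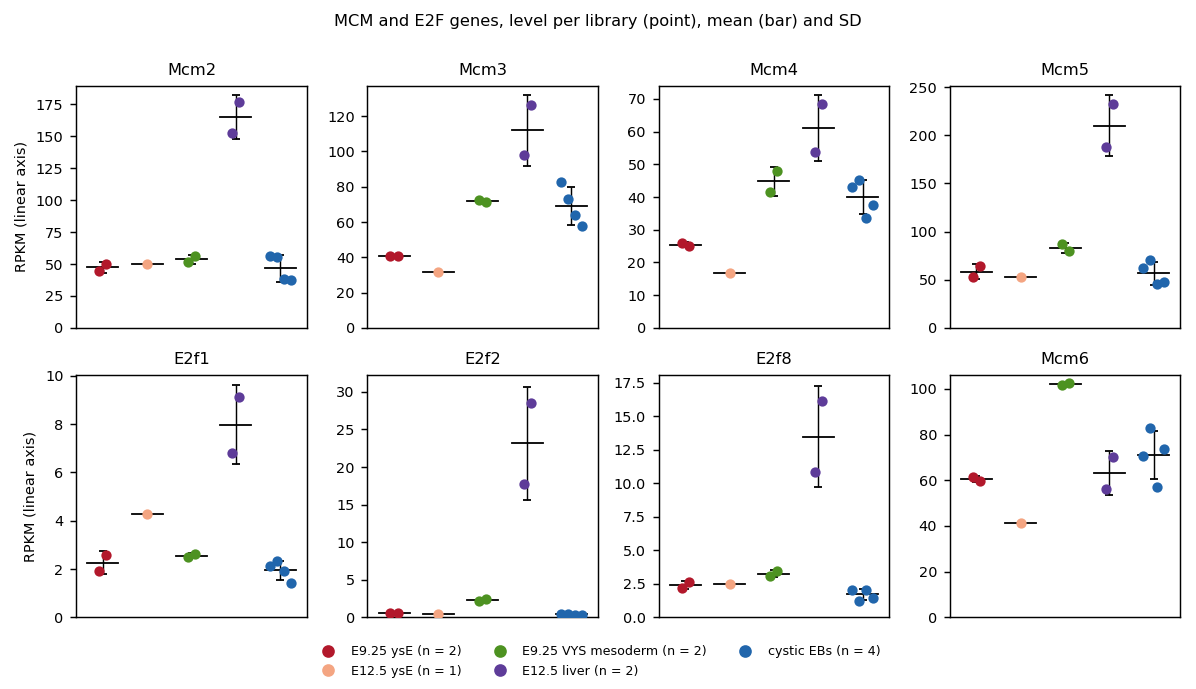
RPKM (linear axes from 0) of 5 MCM and 3 E2F genes, 1 point per library, with the group mean (bar) and SD. Liver lies above all other groups for Mcm2, Mcm3, Mcm4, Mcm5, E2f1, E2f2 and E2f8, and mesoderm is highest for Mcm6 at 102 and 103.

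Of the E2Fs, E2f2, an activator, showed the largest liver difference of the 45 genes against E9.25 ysE. It was at 0.553 and 0.630 RPKM in E9.25 ysE, 0.450 at E12.5, 2.12 and 2.45 in mesoderm, 17.8 and 28.5 in liver, while the cystic EBs held 0.454, 0.491, 0.347 and 0.379. Liver was far above mesoderm, and mesoderm above ysE and cystic EBs, with no overlap. Liver exceeded E9.25 ysE by 5.17 ± 0.32 (adjusted p = 1.28e-05) and E12.5 ysE by 5.64 ± 0.46 (4.52e-05), and mesoderm exceeded E9.25 ysE by 1.63 ± 0.28 (2.22e-03). Cystic EBs were below liver by -6.12 ± 0.25 (9.08e-07), and by -6.15 within ScriptSeq (7.2e-04). The summed erythroid markers were likewise highest in liver, next in mesoderm and low in ysE and cystic EBs, and their part in this difference was not tested.

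E2f1, also an activator, was at 1.93 and 2.59 RPKM in E9.25 ysE, 4.30 at E12.5, 2.48 and 2.62 in mesoderm, 6.82 and 9.14 in liver, with 2.15, 2.32, 1.93 and 1.41 in the cystic EBs. Liver was highest and E12.5 ysE next. Cystic EBs were lower than liver by -2.35 ± 0.27 (adjusted p = 1.74e-04) and than E12.5 ysE by -1.50 ± 0.33 (6.13e-03), the latter lost on leaving out several libraries, E9.25 ysE and mesoderm among them. E2f3 varied less, from 2.84 and 3.31 RPKM in E9.25 ysE and 1.38 at E12.5 to 3.40 and 3.42 in mesoderm, 5.93 and 5.16 in liver, while the cystic EBs held 6.78, 3.95, 4.28 and 4.59. Its liver value differed from E12.5 ysE by 1.98 ± 0.37 (2.21e-03).

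E2f4, which represses with pocket proteins in resting cells and is known for its need in fetal red cell formation, was at 14.5 and 19.5 RPKM in E9.25 ysE, 17.5 at E12.5, 18.9 and 20.2 in mesoderm, 27.2 and 46.3 in liver, with 14.8, 15.6, 14.7 and 12.2 in the cystic EBs. Cystic EBs differed from liver by -1.68 ± 0.24 (adjusted p = 5.26e-04), but the liver libraries themselves differed widely, and the liver call against E9.25 ysE (0.99 ± 0.29, 1.52e-02) was lost without liver replicate B or ysE E9.25 replicate A. E2f5, its relative, had another pattern, with 5.71 and 5.66 RPKM in E9.25 ysE, 3.14 at E12.5, 19.4 and 18.2 in mesoderm, 7.78 and 8.06 in liver, while the cystic EBs held 19.4, 14.9, 13.0 and 20.1. Mesoderm and cystic EBs overlapped and lay above the rest. Against E9.25 ysE, E2f5 was 1.404 ± 0.23 higher in mesoderm (1.65e-03) and 1.11 ± 0.20 higher in cystic EBs (1.79e-03).

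The atypical E2Fs, which repress E2F targets without a dimer partner, were both highest in liver. E2f8 was at 2.19 and 2.61 RPKM in E9.25 ysE, 2.47 at E12.5, 3.06 and 3.43 in mesoderm, 10.8 and 16.2 in liver, with 2.08, 1.26, 2.05 and 1.45 in the cystic EBs. E2f7 was at 0.864 and 1.23 in E9.25 ysE, 0.402 at E12.5, 1.32 and 1.41 in mesoderm, 2.35 and 2.72 in liver, while the cystic EBs held 1.96, 1.45, 1.07 and 0.976. Liver exceeded every other library in both genes. The log2 difference of liver from E9.25 ysE was 2.37 ± 0.33 for E2f8 (adjusted p = 3.65e-04) and 1.16 ± 0.37 for E2f7 (2.40e-02), the latter lost without either liver library or ysE E9.25 replicate A. Cystic EBs were below liver by -3.31 ± 0.27 (3.37e-05) and -1.22 ± 0.31 (1.03e-02), the E2f7 call lost without liver replicate B. Of the 9 genes with an E2F match of a form searched for, 5 were higher and 0 lower in liver than in the 1 library of E12.5 ysE. Of the 26 without such a match, 10 were higher and 3 lower (23.7% and 22.6% of all transcripts). For liver against E9.25 ysE the counts were 5 and 1 of the 9, and 11 and 6 of the 26 (28.3% and 26.7%). Against liver, cystic EBs had 0 higher and 4 lower of the 9, and 4 and 10 of the 26 (24.6% and 20.9%). Against E9.25 ysE they had 0 and 2 of the 9, and 6 and 8 of the 26 (27.1% and 23.2%).

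Genes of the same pathway outside the 45 were read from 5 lists, and the share of all transcripts called stands in brackets. Of 16 genes of origin licensing and firing, 7 were higher and 0 lower in liver than in E12.5 ysE (23.7% and 22.6% of all), among them Cdc6, the loader of the helicase (4.25 RPKM in E12.5 ysE, 18.8 and 23.3 in liver, 2.27 ± 0.33, adjusted p = 6.0e-04). Against E9.25 ysE, 2 were higher and 2 lower in liver (28.3% and 26.7%), Orc6 by -2.21. In cystic EBs 5 of the 16 were lower and 0 higher than in E9.25 ysE (23.2% and 27.1%). Of 14 genes of DNA synthesis, 6 were higher and 1 lower in liver than in E12.5 ysE (23.7% and 22.6%), 4 and 1 against E9.25 ysE (28.3% and 26.7%), and 8 were lower and 0 higher in cystic EBs than in liver (20.9% and 24.6%). Rrm1, a subunit of ribonucleotide reductase, was at 238 and 192 RPKM in liver and 33.6 to 70.3 RPKM elsewhere. Among 18 mitotic genes the directions were mixed, with 5 higher and 7 lower in liver than in E9.25 ysE (28.3% and 26.7%). Against E12.5 ysE the balance was the other way, with 6 higher and 2 lower in liver (23.7% and 22.6%). For the cystic EBs against E9.25 ysE the counts were 1 higher and 8 lower (27.1% and 23.2%). Cdc25b, a phosphatase that activates CDK1, was at 20.3 and 26.9 RPKM in liver, 6.03 and 6.75 in mesoderm, 0.625 and 0.667 in E9.25 ysE and 1.33 to 2.12 in cystic EBs, and Cks1b at 6.37 and 6.54 in liver against 84.5 and 91.9 in E9.25 ysE. Cks1b also differed by protocol and clone within the cystic EBs, with 22.4 and 15.8 RPKM in A9 (ScriptSeq, as in liver) and 59.8 and 65.2 in JN (dUTP, as in E9.25 ysE). So did Cdc20, with 18.9 and 12.51 RPKM in A9 and 73.8 and 75.0 in JN. Among the DNA synthesis genes, Pcna held 32.4 and 23.1 RPKM in A9 and 142 and 100.3 in JN. Uhrf1 held 19.99 and 11.1 in A9 and 53.8 and 37.0 in JN. Rrm1 went the other way, with 70.3 and 48.6 in A9 and 38.5 and 42.5 in JN. Counts within a protocol are not given for these lists.

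CDK inhibitors and pocket proteins, the brakes of the cycle, differed in kind between tissues. Of 10 genes, cystic EBs had 4 higher and 6 lower than liver (24.6% and 20.9% of all). Cdkn1a, the p21 inhibitor, was at 10.9, 13.1, 9.84 and 18.3 RPKM in cystic EBs and at 0.631 to 2.79 in all others, 2.79 ± 0.34 log2 units above E9.25 ysE (adjusted p = 2.2e-04). Cdkn2a was listed at 0 in both liver libraries, at 13.3 RPKM in ysE at E12.5, 4.37 and 5.15 at E9.25, 0.403 and 0.603 in mesoderm and 2.37 to 6.24 in cystic EBs. Rb1, the retinoblastoma protein, was at 6.90 and 7.29 RPKM in liver, 3.21 to 5.42 in cystic EBs, 1.94 and 2.14 in mesoderm and 0.431 to 0.772 in ysE. Of 8 E2F partners and DREAM complex genes, cystic EBs had 1 higher and 5 lower than E9.25 ysE (27.1% and 23.2%), and Tfdp2, a dimer partner of E2Fs, was 2.64 ± 0.32 higher in liver than in E9.25 ysE (1.7e-04).

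H3K4me3 in whole E12.5 VYS, a mixture of ysE and mesoderm, marked most starts of the 45 genes. Of 35 genes with a RefSeq start, 32 (91.4%) had a peak within 1 kb, against 45.3% of all other genes and 73.9% of other genes tested for expression. The 3 without a peak were Ccna1, Ccnb3 and Cdk15, the same 3 that were under 1 RPKM in every RNA-seq library. Of those with a peak, the lowest peak scores given by MACS, which rise as the p-value falls, were 433 at Ccnd3, 459 at Ccne1 and 678 at Cdk18. Only the outermost 5′ start of a gene was used, and Ccnd3 has 2 promoter windows. A score of exactly 3100 was shared by 15 genes, so the scores do not rank the strongest peaks. The mark cannot be assigned to 1 of the layers in this mixture.

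Mean coverage in WGBS was 1.80 to 2.21 reads per CpG position, so values of single genes are rough. Over gene bodies, 38 of the genes had at least 5 reads in each library. With a minimum of 1 read the number was also 38, so the other genes had no reads at all and are missing from the medians. The median methylation of the 38 genes was 76.0% and 72.9% in ysE (CxF and FxC), 80.0% and 87.8% in liver, with 85.4% and 79.3% in the cystic EBs. Over all other genes it was 70.0% and 64.3%, 78.4% and 80.1%, and 86.6% and 82.1%, and over all CpGs 67.8% and 60.1%, 77.6% and 79.8%, and 87.0% and 82.6%. The lowest medians were in ysE, as for all genes, and their ysE bodies lay above the median of other genes in both crosses. With 2 libraries per tissue, the comparison cannot reach an exact permutation p under 0.05. Ccnd1 and Ccnd2 bodies were at 53.9% and 47.8% (76 and 23 reads) and 65.6% and 52.0% (180 and 98) in ysE, 62.5% and 65.2% and 86.0% and 83.8% in liver, and 74.5% and 68.5% and 76.6% and 81.9% in cystic EBs. Cdk14, a long gene with 2077 to 3516 reads per library, was at 65.5% and 59.0% in ysE, 75.9% and 80.1% in liver, while the cystic EBs held 89.2% and 87.5%. Bodies of Ccnd1, Ccnd2 and Cdk14, low in RNA in ysE, were thus less methylated there than in both other tissues. So were all CpGs pooled and the median of all other genes. How many other genes separated in this way was not counted, so it is not shown to be particular to these genes.

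Within 1 kb of the start, 17 to 23 of the genes had at least 5 reads in a library. Their median was 21.1% and 11.1% in ysE, 20.7% and 32.9% in liver, with 45.8% and 25.0% in the cystic EBs, below the 42.9% and 40%, 59.8% and 62.5%, and 75.0% and 68.4% of all other genes. The other genes, here and for gene bodies, include genes not tested for expression, whereas all genes of the set were tested. Values for tested genes alone were not computed. A median of 9 to 13.5 reads per gene stood behind the values near starts, and the medians moved with the width of the window and the minimum of reads.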

How the data were processed

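Total RNA was depleted of ribosomal RNA and sequenced from 11 libraries. Tissues were pooled from whole litters, so the spread between single embryos was not measured. The p-values of the main fits rest on the spread between libraries, shared over all groups of a fit. That spread includes the cystic EB libraries, which are not litter pools and differ in clone, protocol and day. The authors aligned reads with GSNAP to mm10 and deposited raw read counts and RPKM per RefSeq transcript, and counts per exon part. WGBS calls (BisSNP) were deposited as the percent of methylated reads and the coverage per CpG, and H3K4me3 peaks with their MACS 1.4.2 score. The treatment of reads with several alignments is not given in the sources used here.

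Counts were normalized by TMM and fitted in 1 model of the 5 tissue groups, with the days of cystic EBs in a second model, by edgeR 4.0.16 (glmQLFit and glmQLFTest, R 4.3.3) over 24858 transcripts, with Benjamini-Hochberg adjustment. E12.5 ysE has 1 library, whose spread is assumed to be that of the other groups. The script was tested on simulated data. The 4 cystic EB libraries are 2 clones, and same-lettered libraries of d10 and d15 deviated together (r = 0.632). They share a clone and a library protocol, which cannot be told apart. Alternatives were DESeq2 1.42.0, its size factors in edgeR, no filter, only the groups compared, a replicate block, other transcripts, fits within a protocol and each library left out. Methylation used windows with at least 5 reads. Promoters came from RefSeq, GRCm38.p6, and for genes with several starts only the outermost 5′ start was kept. The genes and lists were chosen with earlier results of these data known. Genes named with every library's value were the 2 of highest mean RPKM per role and the 3 largest calls per direction and comparison.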

Additional observations from a re-analysis of the deposited data

Results flagged for a closer look

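Among the 4 cystic EB libraries, 3 of the 45 genes had a library far from the other 3, by the gap to the nearest library over the whole range. Chance alone marks about 1 in 20 such groups of independent libraries, and 3 of 45 is not far from that. Libraries of the same clone deviated together here, so the rate is only a guide. Ccnd3 was at 19.3 RPKM in d15 JN, with 11.04, 12.1 and 11.5 in the others. Cdk13 was at 12.53 RPKM in d10 JN, with 15.6, 15.4 and 15.3 in the others. E2f6 was at 9.92 RPKM in d10 A9, with 7.69, 7.57 and 7.86 in the others.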

How the results depend on the processing

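Of 130 calls of single genes, 84 were kept under every alternative. Of 2243 alternative values of these calls, 182 lost the call and 0 changed direction. The following counts of genes, higher then lower, moved by over 1.5 times, and the cause was not tested. With only the groups compared in the fit, mesoderm against E9.25 ysE gave 15 and 8 (30.3% and 30% of all transcripts in that fit), cystic EBs against E12.5 ysE 3 and 1 (3.39% and 4.91%), E12.5 against E9.25 ysE 5 and 19 (25.1% and 25.2%), and cystic EBs above liver 3 (19.7%). DESeq2 put 5 genes of cystic EBs below E12.5 ysE (14.2%) and 6 of E12.5 ysE below E9.25 ysE (6.62%). A threshold of 5% in place of 1% gave 11 and 5 in the comparison of cystic EBs with E12.5 ysE (21.1% and 18.8%). Within ScriptSeq 4 were above liver (21.8%). Leaving out each library gave, for higher and lower genes, 20 to 24 and 4 to 4 (liver against E12.5 ysE), 16 to 22 and 5 to 9 (liver against E9.25 ysE), 0 to 0 and 0 to 6 (E12.5 against E9.25 ysE), 7 to 10 and 0 to 4 (mesoderm), 1 to 7 and 14 to 19 (cystic EBs against liver), 6 to 7 and 1 to 3 (against E12.5 ysE), 8 to 12 and 6 to 18 (against E9.25 ysE), and 0 and 0 between days. In the same order, the shares of all transcripts called ran from 19.1% to 25.6% and 17.3% to 24%, 20.4% to 30.9% and 19.4% to 28.1%, 0.622% to 5.67% and 0.797% to 6.46%, 9.34% to 18.6% and 5.59% to 15.5%, 13.5% to 26.4% and 13.4% to 22.2%, 8.3% to 12% and 10.2% to 13.3%, 16.2% to 28% and 14.1% to 24.8%, and up to 0.167% and 0.00407%. Without Ccnb1 and Mcm7, or with counts summed per clone, both chosen after seeing the data, no count moved by over 1.5 times.

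With a replicate block the counts were 8 and 3 (mesoderm, 18.3% and 15.2% of all), 22 and 9 (liver against E9.25 ysE, 29.7% and 28.5%), 11 and 16 (cystic EBs against E9.25 ysE, 27.8% and 25.9%), 6 and 21 (against liver, 25.6% and 22.6%) and 0 and 0 between days. Between days the letters mark the clone and its library protocol. The pairing check gave r of -0.09 to 0.17 for other groups of the same letter. Whether E9.25 ysE and mesoderm libraries of the same letter came from the same litters is not given. No paired analysis was possible for E12.5 ysE because it has 1 library. The median methylation near starts over both crosses was 16.1% for ysE, 26.8% for liver and 35.4% for cystic EBs. It became 2.39%, 35.6% and 52.2% with at least 20 reads, where only 6 and 1 genes remained for the crosses of ysE, 4 and 6 for liver, 5 and 2 for cystic EBs. It was 5.09% in ysE and 14.7% in liver within 500 bases. Coverage limits these values, and counts near 0 limit Ccnb3, Cdk15 and Cdk18.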
